A study of Danio rerio with 6 samples.

Results

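Keratins are the intermediate filament proteins of epithelial cells, and their genes are described here across mgat4b mutant melanoma, control melanoma and wild-type melanophores of zebrafish. Members were the genes whose zebrafish name begins with krt and a digit, with krtt or with cyt1, leaving out names that begin with krtcap. This rule, which uses no measured value, gave 22 of the 32520 genes counted in the 6 libraries. They lie on 6 chromosomes of GRCz11, the build of all coordinates given here, with 7 on chromosome 19, 6 on chromosome 11, 4 on chromosome 23, 2 each on chromosomes 6 and 22, and 1 on chromosome 5. krt96 was not in the name table and was not analysed here.

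In the mgat4b mutant melanoma group (2 libraries), plasmids of the MAZERATI tumor model were injected into embryos of the Assam wild-type strain (ASWT), so that the mitfa promoter, which is active in the melanocyte lineage, drove an oncogenic BRAF and a Cas9 with guides against p53, ptena, ptenb and mgat4b. Control melanoma (2 libraries) came from fish with the same oncogene and the same tumor suppressors targeted but with a control in place of the mgat4b guide, and WT melanophores (2 libraries) came from wild-type fish without the MAZERATI treatment. Fish of all groups were 1 month old. Cells of all groups were taken from enzymatically dissociated skin or melanoma biopsies by a Percoll density gradient, with no sort for pigment cells. Both melanoma groups thus hold melanocytes beside transformed cells, and the mutant group carries the melanoma label although its fish had pigment cell aggregates in place of tumors. Cas9 editing is mosaic, and the number of fish behind each library and any pooling are not given in the sources used here.

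Keratins build filaments only as pairs, each of 1 acidic type I and 1 basic type II protein, and desmosomes and hemidesmosomes anchor these filaments to neighbouring cells and to the basement membrane. Which pair a cell makes follows its layer and its state: in fish skin krt1-19e (older name krtt1c19e) marks basal keratinocytes, krt4 marks the surface layers, and krt8 with krt18 is the pair of simple epithelia. Melanophores are neural crest cells and are not known for keratins.

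The libraries held between 3538922 and 8446997 counts, with the mutant libraries the shallowest. mgat4b itself was read at 94 and 52 counts in mutant melanoma (19.8 and 15.1 CPM), 102 and 107 counts in control melanoma (15.7 and 16.2 CPM) and 264 and 260 counts in WT melanophores (26.5 and 27.1 CPM). The mutant and control melanoma values overlapped. They count reads of all cells in a library, edited or not, and an edit that leaves the transcript in place would not show in them. In FACS-isolated melanocytes with mgat4b targeted, the paper reports a significant fall of its transcript by qRT-PCR. The cause of the overlap seen here was not tested. CPM is the count of a gene relative to its library's size, rescaled over all 6 libraries with TMM, the trimmed mean of M values. Replicate libraries varied beyond counting noise in all 3 groups (a mean chi-square per gene of 9.48 in mutant melanoma, 2.47 in control melanoma and 2.26 in WT melanophores, where counting noise alone gives 1). The labels call them biological replicates without saying whether they came from separate animals, and p-values measure the spread between these libraries.

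The preparations were rich in epidermal RNA and poor in pigment cell RNA. The 19 melanophore marker genes found summed to 360 and 330 CPM in mutant melanoma, 311 and 320 CPM in control melanoma, and only 85.1 and 89.7 CPM in WT melanophores. There the pigment genes pmela and TYRP1 (ENSDARG00000056151) averaged 4.61 and 2.25 CPM, and KIT gave the most, with 29.8 and 37.7 CPM. Some of these markers went the other way. MITF (ENSDARG00000037833) had 1.48 and 0.0 CPM in mutant melanoma, 3.54 and 7.25 CPM in control melanoma, and 13.9 and 12.2 CPM in WT melanophores. TRPM1 (ENSDARG00000011259) was also highest in WT melanophores, with 1.1 and 1.25 CPM. The 23 keratinocyte markers other than keratins summed to 10209 and 9790 CPM in mutant melanoma. Their sums were 7581 and 7443 CPM in control melanoma, and 9547 and 9887 CPM in WT melanophores. The epithelial adhesion gene epcam led them in control melanoma (mean 2055 CPM) and WT melanophores (2512 CPM). In mutant melanoma the epidermal gene icn led, with a mean of 3257 CPM against 2548 CPM for epcam. In such bulk samples fewer cells of a type and less RNA per cell cannot be told apart, and this holds for every keratin level below.

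Keratin transcripts took up less of both melanoma groups than of WT melanophores. They made up 1.21% and 1.22% of all counts in the mutant libraries, 0.78% and 0.776% in control melanoma, and 2.29% and 2.33% in WT melanophores. The 95% Wilson intervals were within 0.0114 percentage points of each value and cover counting error only. Mean shares were 1.21 ± 0.00684% in mutant melanoma, 0.778 ± 0.00262% in control melanoma and 2.31 ± 0.0271% in WT melanophores (SD, n = 2 each). The mean share was thus 0.526 times the WT mean in mutant melanoma and 0.337 times the WT mean in control melanoma, and it was 1.56 times higher in mutant than in control melanoma. None of these groups overlapped, but with 2 libraries against 2 an exact two-sided permutation test cannot go below p = 0.333, which each comparison gave.

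The size of these gaps depended on the denominator. The libraries also differed in noncoding RNA, whose own part in these gaps was not tested. The signal recognition particle RNA rn7sl1 alone took 30.7% and 26.2% of the mutant counts, 37.4% and 37.3% of the control melanoma counts, and 7.65% of the counts in each WT library. With the mitochondrial genes and the 20 most abundant genes other than keratins left out of the totals, keratins made up 2.32% and 2.22% in mutant melanoma, 1.73% and 1.73% in control melanoma, and 2.85% and 2.9% in WT melanophores. The order of the groups was unchanged by this denominator, while control melanoma then stood at 0.601 times and mutant melanoma at 0.788 times the WT mean. On the TMM scale the summed keratin level averaged 12903 ± 588 CPM in mutant melanoma, 9882 ± 27.0 CPM in control melanoma and 17106 ± 285 CPM in WT melanophores (SD, n = 2 each).

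**Figure D1:**
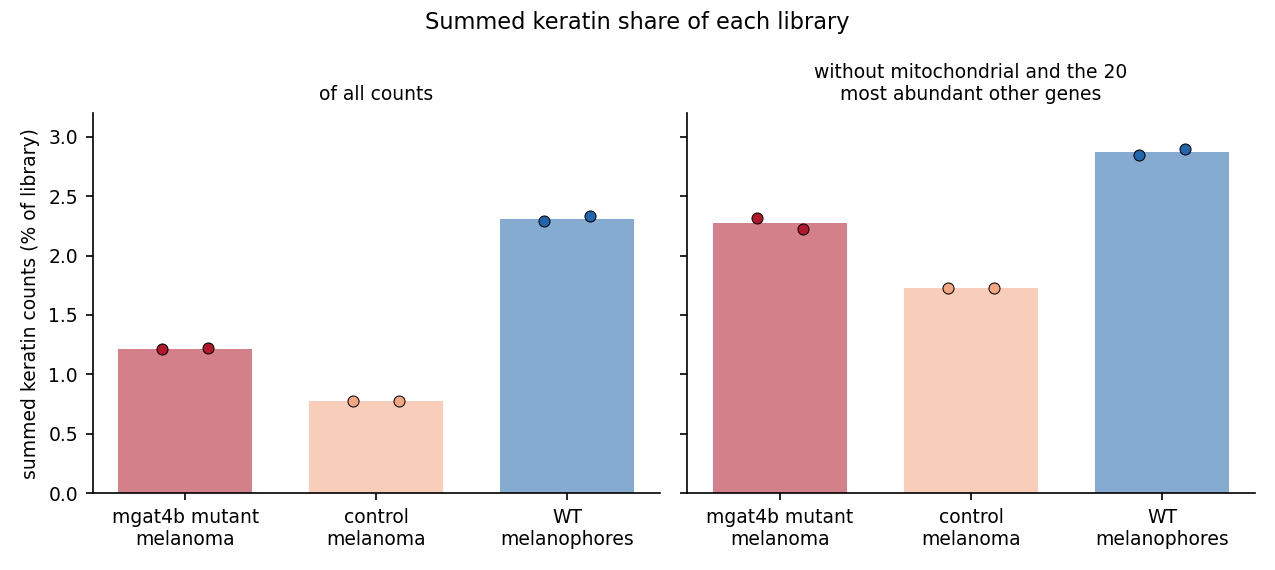
Summed keratin counts as a percentage of each library, over all counts (left) and without mitochondrial genes and the 20 most abundant other genes (right). Points are libraries and bars are group means; with either denominator the mutant libraries lie between control melanoma and WT melanophores.

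A small number of genes carried this pool. krt91, krt5 and krt4 together gave 79.5% and 79.9% of the keratin counts in mutant melanoma, 73.2% and 73.0% in control melanoma, and 76.9% and 77.2% in WT melanophores. Per kilobase of annotated gene length, the 3 most abundant were krt91, krt5 and krt4, in this order, in every group. Below them the order differed: krt15, krt97, krt17 and krt8 followed in mutant melanoma, krt15, krt8, krt97 and krt17 in control melanoma, and krt97, krt8, krt15 and krt18b in WT melanophores. Among the 12 most abundant keratins, neighbours in this order whose library values overlapped were krt18b with krt1-19d and krt1-19d with krt1-19e in mutant melanoma, and krt94 with krt1-19e in control melanoma. A count was recorded for 20 and 17 of the 22 keratins in mutant melanoma, 22 and 19 in control melanoma, and 22 in each WT library.

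The make-up of the pool set mutant melanoma apart. By counts, which favour longer genes, krt5 was its largest member there. It held 37.7% and 37.1% of the keratin counts in mutant melanoma, against 25.4% and 24.9% in control melanoma and 28.7% and 30.2% in WT melanophores. Per kilobase krt91 stayed ahead of krt5 in mutant melanoma, with means of 2316 and 1957 CPM. krt91 had the most counts in the other groups, with 31.1% and 31.9% in mutant melanoma, 34.0% and 34.1% in control melanoma and 35.6% and 34.7% in WT melanophores. The simple-epithelium keratins krt8, krt18a.1 and krt18b went the other way, with 6.21% and 6.6% together in mutant melanoma, 13.1% and 13.2% in control melanoma, and 9.79% and 9.69% in WT melanophores. krt5 had 7.93 and 7.18 counts for each krt8 count in mutant melanoma, 2.47 in both control melanoma libraries, and 3.96 and 4.2 in WT melanophores. For each krt4 count there were 3.52 and 3.43 krt5 counts in mutant melanoma, 1.86 and 1.78 in control melanoma, and 2.29 and 2.44 in WT melanophores. These ratios within a library do not depend on how library totals were scaled.

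**Figure D2:**
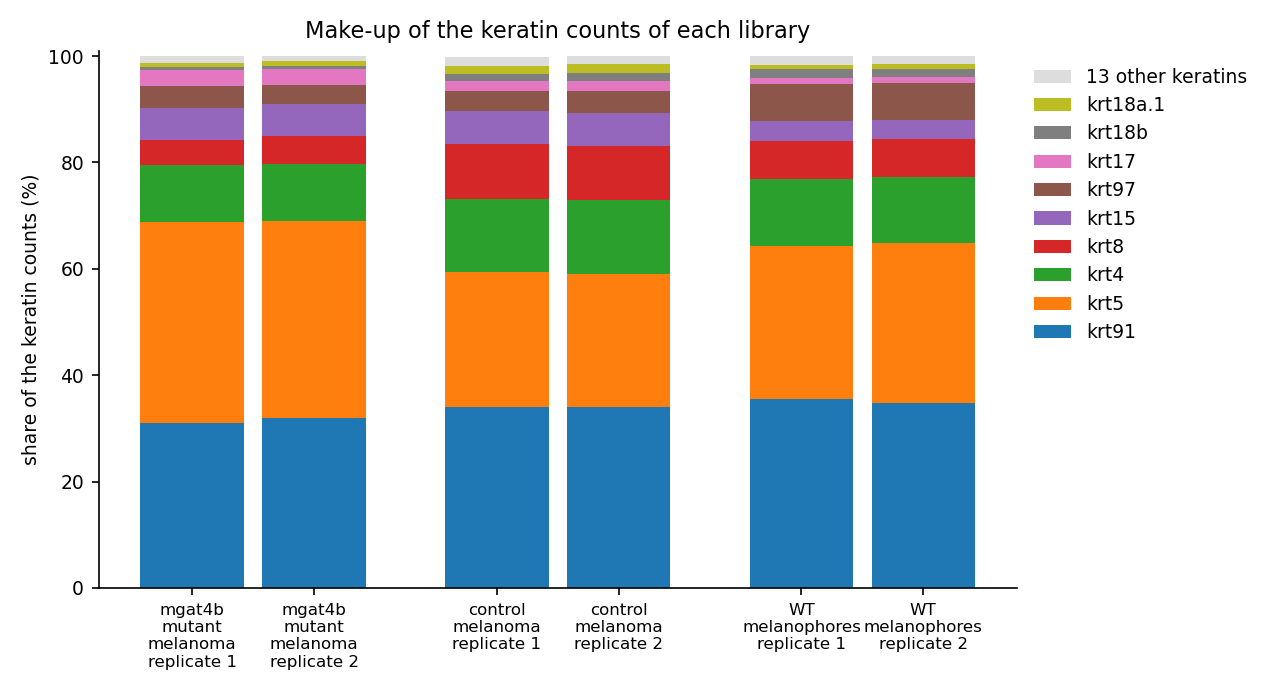
Share of each keratin in the keratin counts of each library, in percent, with the 13 least abundant keratins stacked as 1 grey block. krt5 holds 37.7% and 37.1% of the mutant bars, and krt8 4.76% and 5.17%, against 10.3% and 10.1% for krt8 in control melanoma and 7.25% and 7.18% in WT melanophores.

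krt4, krt5 and krt8 were grouped as type II keratins by their names, and they gave 53.2% and 53.1% of the keratin counts in mutant melanoma, 49.4% and 49.0% in control melanoma, and 48.5% and 49.7% in WT melanophores. Per kilobase these shares were 43.5% in both mutant libraries, 39.5% and 39.1% in control melanoma, and 38.8% and 40.0% in WT melanophores. The other 19 genes were not summed by type, so that the balance of both types was not measured.

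Each pair of groups was then compared gene by gene by the quasi-likelihood test of edgeR, with Benjamini-Hochberg adjustment over all genes tested. A gene counted as called when its adjusted p lay under 0.05 and its log2 fold change reached 1 in either direction. The 3 comparisons share libraries, so their calls are not independent of each other. In mutant melanoma against WT melanophores 9 of 19 tested keratins were called (19.3% of all genes tested were), with 4 higher (background 9.72%) and 5 lower (background 9.57%). In control melanoma against WT melanophores 6 of 19 were called (background 31.9%), with 1 higher (background 19.9%) and 5 lower (background 12.1%). In mutant against control melanoma 1 of 17 was called (background 12.5%), with 1 higher (background 5.86%) and 0 lower (background 6.68%). The total count in control melanoma was thus near the background and is no result about keratins. Split by direction, its 5 lower lay above their background and its 1 higher below, which was not tested. The count in mutant melanoma against WT melanophores lay above its background and that in mutant against control melanoma below it, and these differences were not tested.

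Without a minimum fold change the picture was of many modest differences. By adjusted p alone, 13 of 19 keratins differed in mutant melanoma against WT melanophores, 5 higher (background 13.1%) and 8 lower (13.9%), where 27.0% of all genes tested did, and 15 of 19 in control melanoma against WT melanophores, 3 higher (background 29.2%) and 12 lower (27.0%), where 56.2% of all genes did. In mutant against control melanoma 9 of 17 differed, 5 higher (background 9.46%) and 4 lower (9.26%), where 18.7% of all genes did, and 12 had an unadjusted p under 0.05. The median log2 fold change of the tested keratins was -0.53 for mutant melanoma against WT melanophores, -0.62 for control melanoma against WT melanophores and 0.37 for mutant against control melanoma. Over all genes tested the median was -0.03 for mutant melanoma against WT melanophores, -0.01 for control melanoma against WT melanophores and -0.02 for mutant against control melanoma.

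**Figure D3:**
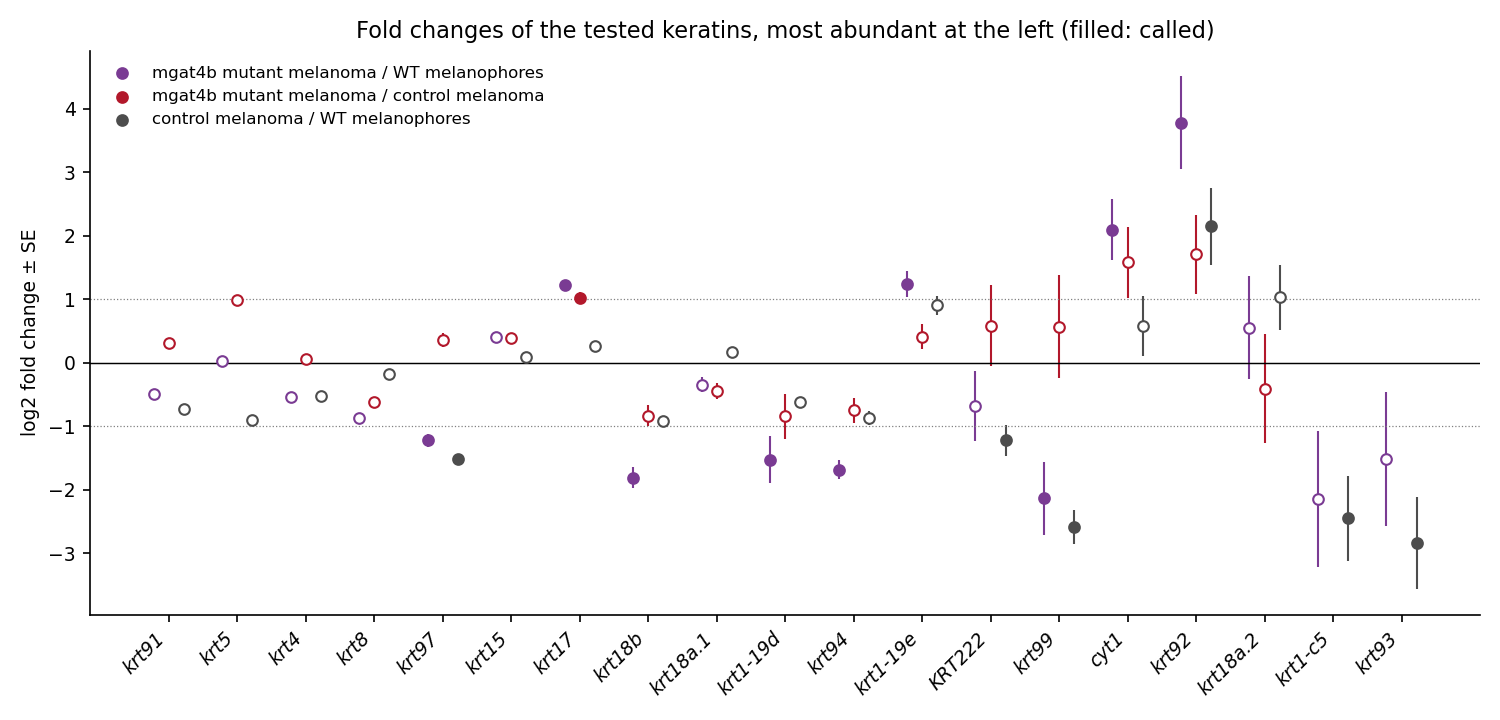
Log2 fold change ± SE (edgeR) of the 19 keratins tested in at least 1 comparison, ordered by mean CPM, for the 3 comparisons named in the legend; filled points were called and dotted lines mark the minimum fold change. Among the abundant genes at the left krt5 lies at 0.02 in mutant melanoma against WT melanophores and at -0.90 in control melanoma against WT melanophores; the fold change of krt93 in control melanoma rests on 3 and 1 counts.

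krt5 (ENSDARG00000058371, chr23:10173196-10177458) overlapped the WT libraries in mutant melanoma and lay below them in control melanoma. It had 5025 and 4637 CPM in mutant melanoma, 2508 and 2463 CPM in control melanoma, and 4855 and 5222 CPM in WT melanophores. The mutant and WT values overlapped, and both control melanoma values lay below all others. Its log2 fold change was 0.02 ± 0.07 in mutant melanoma against WT melanophores (SE, edgeR adjusted p = 0.84) and -0.90 ± 0.04 in control melanoma against WT melanophores (edgeR adjusted p = 7.9e-26). Mutant exceeded control melanoma by 0.996 ± 0.074 on the log2 scale (edgeR adjusted p = 5.8e-05), just short of the minimum of 1; it passed this minimum at 1.045 when mutant replicate 2 was left out.

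krt1-19e (ENSDARG00000090268, chr19:5339364-5345932), a basal type I keratin, was higher than in WT melanophores in both melanoma groups. It had 43.9 and 33.9 CPM in mutant melanoma, 30.1 CPM in each control melanoma library, and 16.6 and 18.2 CPM in WT melanophores. Mutant melanoma exceeded WT melanophores by a log2 fold change of 1.25 ± 0.20 (edgeR adjusted p = 0.00541, called), and control melanoma did so by 0.91 ± 0.15 (edgeR adjusted p = 1.0e-06), under the minimum. The difference between mutant and control melanoma, 0.41 ± 0.20, did not pass (edgeR adjusted p = 0.183).

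krt17 (ENSDARG00000094041, chr19:5367330-5372572) is a type I keratin whose namesake in mammals is made by wounded and activated epidermis. It had 403 and 385 CPM in mutant melanoma, 197 and 200 CPM in control melanoma, and 174 and 182 CPM in WT melanophores. Both mutant values lay far above the other 4. The log2 fold change was 1.23 ± 0.09 against WT melanophores (edgeR adjusted p = 1.4e-04) and 1.03 ± 0.09 against control melanoma (edgeR adjusted p = 1.5e-04), the only keratin called in that comparison. The value against control melanoma sits at the minimum fold change: it was 0.996 with library sizes that leave out abundant genes, 0.953 with at least 10 counts in every library, 0.995 without control melanoma replicate 1 and 0.977 without mutant replicate 1, so that the call was lost there although every edgeR adjusted p stayed at 1.9e-04 or lower. Control melanoma exceeded WT melanophores by 0.27 ± 0.07 (edgeR adjusted p = 4.3e-04). With all 6 libraries in 1 fit this difference was 0.188 and did not pass (edgeR adjusted p = 0.0969).

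krt15 (ENSDARG00000036840, chr11:11515778-11518469), which shares its name with a mammalian keratin of basal and stem cells, differed modestly between the groups. It had 807 and 762 CPM in mutant melanoma, 614 and 618 CPM in control melanoma, and 633 and 622 CPM in WT melanophores. The log2 fold changes were 0.40 ± 0.08 for mutant melanoma against WT melanophores (edgeR adjusted p = 0.00915), 0.39 ± 0.08 against control melanoma (edgeR adjusted p = 0.0123) and 0.09 ± 0.05 for control melanoma against WT melanophores (edgeR adjusted p = 0.125).

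Of the surface-layer keratins, krt4 (ENSDARG00000017624, chr6:39308498-39313027), a type II keratin of the outer epidermis, was below the WT level in both melanoma groups. It had 1426 and 1354 CPM in mutant melanoma, 1352 and 1387 CPM in control melanoma, and 2120 and 2143 CPM in WT melanophores. The melanoma values overlapped each other and lay below WT. The log2 fold change against WT melanophores was -0.53 ± 0.07 in mutant melanoma (edgeR adjusted p = 0.00182) and -0.52 ± 0.04 in control melanoma (edgeR adjusted p = 2.4e-15), and 0.06 ± 0.08 between mutant and control melanoma (edgeR adjusted p = 0.654).

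cyt1 (ENSDARG00000092947, chr19:5362420-5364649), a type I keratin known from the enveloping layer of the embryo, was rare and highest in mutant melanoma. It had 37 and 32 counts in mutant melanoma (7.8 and 9.27 CPM), 13 and 25 in control melanoma (2.0 and 3.78 CPM), and 24 and 17 in WT melanophores (2.41 and 1.78 CPM). It was called higher in mutant melanoma than in WT melanophores (log2 fold change 2.097 ± 0.481, edgeR adjusted p = 0.0198), a call that was lost without WT replicate 1 (edgeR adjusted p = 0.147) or WT replicate 2 (edgeR adjusted p = 0.248). Against control melanoma the log2 fold change was 1.59 ± 0.56 (edgeR adjusted p = 0.0813), and DESeq2 called it at an adjusted p of 0.0431. Its neighbour cyt1l (ENSDARG00000036832, chr19:5356421-5358455) had 0 counts in both mutant libraries, 6 and 0 in control melanoma, and 7 and 8 in WT melanophores, which makes it at least 2.1-fold lower in mutant melanoma than in WT melanophores when the mutant group is set to a floor of 3 counts; it did not reach the filter for testing.

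The simple-epithelium keratins krt8, krt18b and krt18a.1 had their lowest values in mutant melanoma. krt8 (ENSDARG00000058358, chr23:10249626-10254288), the type II partner of this pair, had 633 and 646 CPM in mutant melanoma, 1016 and 996 CPM in control melanoma, and 1226 and 1243 CPM in WT melanophores, with no overlap between any groups. It was lower in mutant melanoma than in WT melanophores by a log2 fold change of -0.87 ± 0.07 (edgeR adjusted p = 2.9e-04) and than in control melanoma by -0.62 ± 0.08 (edgeR adjusted p = 0.00112), while control melanoma differed from WT melanophores by only -0.18 ± 0.04 (edgeR adjusted p = 6.2e-04). None of these reached the minimum fold change.

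Among its type I partners, krt18b (ENSDARG00000028618, chr6:39360377-39365467) had 90.0 and 61.7 CPM in mutant melanoma, 136 and 142 CPM in control melanoma, and 288 and 278 CPM in WT melanophores. The 3 groups did not overlap. It was called lower in mutant melanoma than in WT melanophores (log2 fold change -1.80 ± 0.17, edgeR adjusted p = 4.6e-04). On the log2 scale the difference was -0.91 ± 0.07 in control melanoma against WT melanophores (edgeR adjusted p = 3.6e-17) and -0.83 ± 0.17 in mutant against control melanoma (edgeR adjusted p = 0.00959), which became -1.15 and called without mutant replicate 1.

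krt18a.1 (ENSDARG00000018404, chr23:10347851-10351754) moved less, with 103 and 117 CPM in mutant melanoma, 141 and 165 CPM in control melanoma, and 140 and 155 CPM in WT melanophores. Its difference on the log2 scale was -0.44 ± 0.13 in mutant against control melanoma (edgeR adjusted p = 0.0422), -0.35 ± 0.12 in mutant melanoma against WT melanophores (edgeR adjusted p = 0.0699) and 0.17 ± 0.07 in control melanoma against WT melanophores (edgeR adjusted p = 0.0543). Its close neighbour krt18a.2 (ENSDARG00000058332, chr23:10352921-10355552) had between 3 and 26 counts a library and passed in no comparison.

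**Figure D4:**
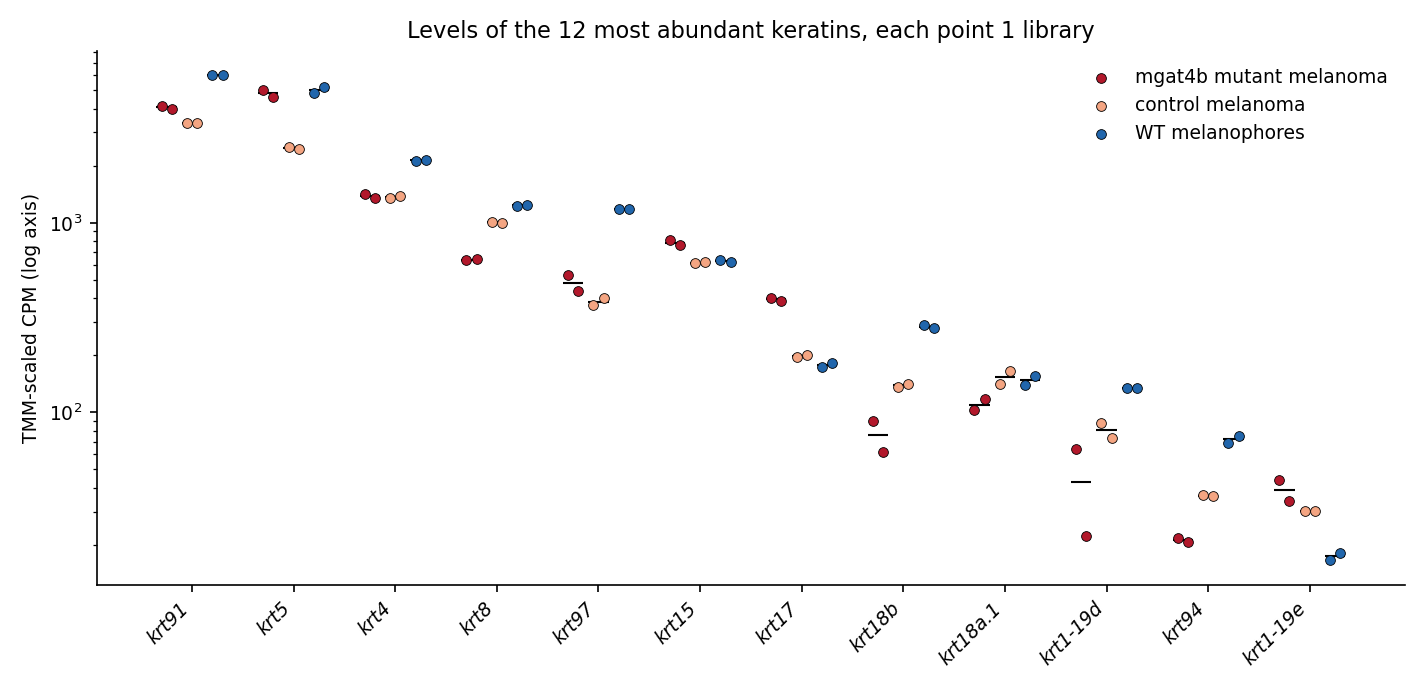
TMM-scaled CPM (log axis) of the 12 keratins with the highest mean, each point 1 library and each black bar a group mean. krt5 is close to the WT level in the mutant and lower in control melanoma, krt17 is highest in the mutant, and krt8, krt18b and krt94 are lowest there; the mutant replicates of krt1-19d are 63.9 and 22.3 CPM.

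No role is given here for the remaining keratins. krt91 (ENSDARG00000036830, chr19:5378563-5380770) had the highest mean CPM over the 6 libraries. In mutant melanoma krt5 exceeded it in CPM but not per kilobase. It had 4141 and 3984 CPM in mutant melanoma, 3357 and 3375 CPM in control melanoma, and 6020 and 6001 CPM in WT melanophores. The groups did not overlap. The log2 fold change was -0.48 ± 0.06 in mutant melanoma against WT melanophores (edgeR adjusted p = 0.00164), -0.72 ± 0.04 in control melanoma against WT melanophores (edgeR adjusted p = 3.3e-23) and 0.31 ± 0.07 in mutant against control melanoma (edgeR adjusted p = 0.0151).

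krt97 (ENSDARG00000000212, chr22:11756040-11759106) showed the largest fall among the 12 most abundant keratins in control melanoma. It had 528 and 435 CPM in mutant melanoma, 368 and 399 CPM in control melanoma, and 1187 and 1189 CPM in WT melanophores. All melanoma libraries were thus under the WT level, with log2 fold changes of -1.22 ± 0.10 in mutant melanoma (edgeR adjusted p = 3.0e-04) and -1.51 ± 0.05 in control melanoma (edgeR adjusted p = 1.6e-30), both called. Mutant exceeded control melanoma by 0.37 ± 0.11 (edgeR adjusted p = 0.0469).

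krt94 (ENSDARG00000044975, chr11:11468566-11471857) had 21.7 and 20.6 CPM in mutant melanoma, 36.8 and 36.1 CPM in control melanoma, and 69.1 and 75.2 CPM in WT melanophores, the same stepwise order as krt18b. It was called lower in mutant melanoma than in WT melanophores (log2 fold change -1.68 ± 0.15, edgeR adjusted p = 3.9e-04). It was lower by -0.87 ± 0.11 in control melanoma against WT melanophores (edgeR adjusted p = 9.9e-10) and by -0.75 ± 0.20 in mutant against control melanoma (edgeR adjusted p = 0.0302).

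krt1-19d (ENSDARG00000023082, chr19:5324653-5332784) was uneven in the mutant replicates, with 63.9 and 22.3 CPM in mutant melanoma, 88.3 and 73.2 CPM in control melanoma, and 134 and 135 CPM in WT melanophores. Both mutant values were below the other 4. The mutant fell below WT melanophores by a log2 fold change of -1.52 ± 0.37 (edgeR adjusted p = 0.0245, called), but DESeq2 gave an adjusted p of 0.0897 for it. This value was -2.53 without mutant replicate 1 and -1.01 without mutant replicate 2. Against control melanoma the value was -0.84 ± 0.35 (edgeR adjusted p = 0.138), and it became -1.004 and called without control melanoma replicate 2 and -1.83 and called without mutant replicate 1. Control melanoma was lower than WT melanophores by -0.62 ± 0.08 (edgeR adjusted p = 1.5e-08). With all 6 libraries in 1 fit this difference was -0.701 and did not pass (edgeR adjusted p = 0.0772).

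krt99 (ENSDARG00000019365, chr11:11565996-11575070) fell in both melanoma groups, with 7 and 23 counts in mutant melanoma, 20 and 16 in control melanoma, and 164 and 186 in WT melanophores. The log2 fold change was -2.13 ± 0.57 in mutant melanoma (edgeR adjusted p = 0.0328) and -2.59 ± 0.27 in control melanoma (edgeR adjusted p = 9.6e-12) against WT melanophores. The mutant value was -1.36 without mutant replicate 1 and -3.53 without mutant replicate 2, and its call was lost without WT replicate 2 (edgeR adjusted p = 0.0562).

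KRT222 (ENSDARG00000071518, chr22:11717429-11729350) had 59 and 10 counts in mutant melanoma, 34 and 36 in control melanoma, and 136 and 127 in WT melanophores. It was called lower in control melanoma than in WT melanophores (log2 fold change -1.22 ± 0.25, edgeR adjusted p = 3.6e-05), but not with all 6 libraries in 1 fit (edgeR adjusted p = 0.0544). In mutant melanoma, where the replicates differed by a factor of 4.3 in CPM, the log2 fold change against WT melanophores was -0.68 ± 0.55 (edgeR adjusted p = 0.4), and it became -2.15 and called without mutant replicate 1.

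Several calls rested on few counts. krt1-c5 (ENSDARG00000026979, chr5:64869176-64883099) had 5 and 0 counts in mutant melanoma, 5 and 1 in control melanoma and 20 and 34 in WT melanophores, and it was called lower in control melanoma than in WT melanophores (log2 fold change -2.45 ± 0.67, edgeR adjusted p = 0.00166). The value was -3.97 without control melanoma replicate 1 and -1.72 without control melanoma replicate 2. Its call was lost without WT replicate 2 (edgeR adjusted p = 0.1) or control melanoma replicate 2 (edgeR adjusted p = 0.0512), and with all 6 libraries in 1 fit (edgeR adjusted p = 0.0863). krt93 (ENSDARG00000044976, chr11:11454545-11458208) had 7 and 0 counts in mutant melanoma, 3 and 1 in control melanoma and 24 in each WT library. Its ratio of control melanoma to WT melanophores was 0.124, with a 95% counting interval of 0.0325 to 0.339, and it was called there (edgeR adjusted p = 7.8e-04) but not with all 6 libraries in 1 fit (edgeR adjusted p = 0.065). The fitted log2 fold change was -2.84, and -3.80 without control melanoma replicate 1.

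krt98 (ENSDARG00000044973, chr11:11504014-11513985) and krt95 (ENSDARG00000014356, chr11:12188120-12198914) were nearly absent. krt98 had 0 counts in both mutant libraries, 1 and 0 in control melanoma, and 2 and 3 in WT melanophores, too few for a fold change. krt95 had 4 and 0 counts in mutant melanoma, 1 and 0 in control melanoma, and 6 and 8 in WT melanophores. krt95, krt98 and cyt1l were tested in no comparison, and krt1-c5 and krt93 were also not tested between mutant and control melanoma. krt95 is the only keratin that overlaps another annotated gene, a short noncoding RNA gene on the other strand with 4 counts in all.

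The 4 keratins called higher in mutant melanoma than in WT melanophores all lie in a single cluster on chromosome 19. There 7 keratin genes, krt1-19d, krt1-19e, krt92, cyt1l, cyt1, krt17 and krt91, follow each other from 5324653 to 5380770 (GRCz11), all on the minus strand and with 0 other annotated genes between them. Of the 6 tested members krt1-19e, krt92, cyt1 and krt17 were called higher, krt1-19d at one end was called lower, and krt91 at the other end had a log2 fold change of -0.48. Physical neighbours thus differed in direction. The cluster was singled out after these values were seen. Closely related keratins may share reads, and how reads that match several genes were counted is not given in the sources used here, so that levels within this cluster are uncertain to that degree.

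krt92 (ENSDARG00000036834, chr19:5349656-5352199) had the largest fold change of the cluster and of all tested keratins in mutant melanoma against WT melanophores, from low counts. It had 23 and 36 counts in mutant melanoma, 15 and 16 in control melanoma, and 4 and 7 in WT melanophores, although the mutant libraries were the shallowest. The log2 fold change was 3.79 ± 0.73 in mutant melanoma (edgeR adjusted p = 0.0103) and 2.15 ± 0.61 in control melanoma (edgeR adjusted p = 0.00242) against WT melanophores. The mutant value was 3.13 without mutant replicate 2. The mutant call was lost without WT replicate 1 (edgeR adjusted p = 0.0562), and the control melanoma call without WT replicate 1 (edgeR adjusted p = 0.0895) or control melanoma replicate 2 (edgeR adjusted p = 0.0519). Between mutant and control melanoma the log2 fold change was 1.71 ± 0.63 (edgeR adjusted p = 0.0921), and it was called with at least 10 counts in every library (edgeR adjusted p = 0.0251).

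**Figure D5:**
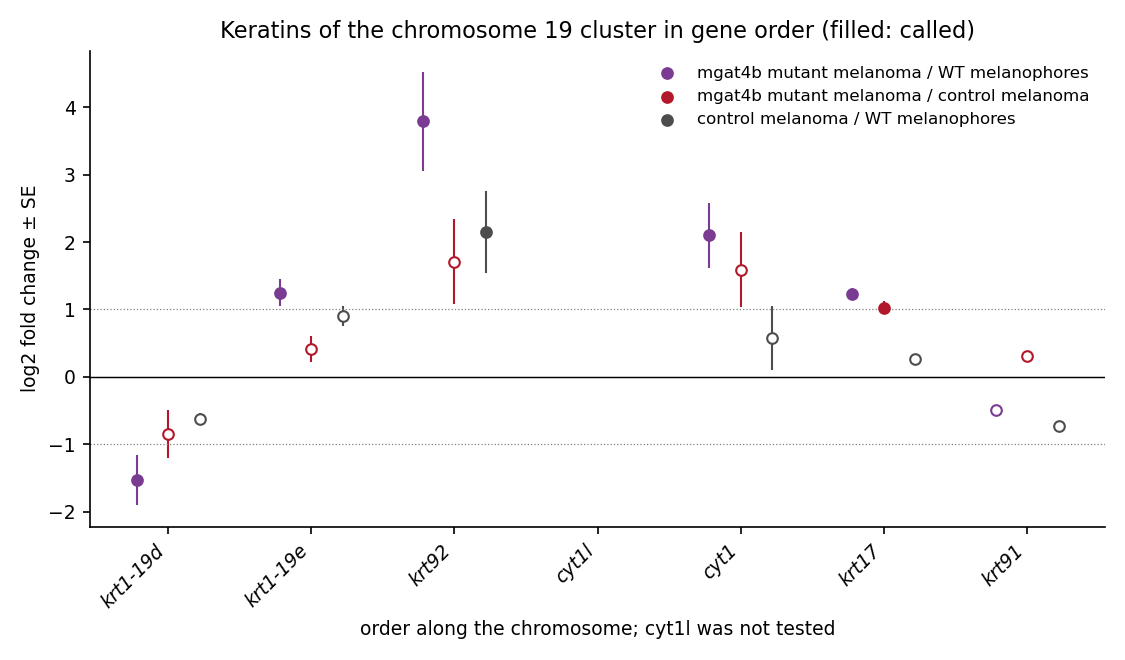
Log2 fold change ± SE (edgeR) of the chromosome 19 keratins, placed in gene order and not to scale, with filled points for called genes. In mutant melanoma against WT melanophores krt1-19e, krt92, cyt1 and krt17 are called higher, between krt1-19d at -1.52 and krt91 at -0.48; cyt1l was not tested.

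Next, the genes that keratin filaments work with were examined. Of 22 desmosome, hemidesmosome and plakin genes, which attach keratin filaments to junctions, 0 were called higher (background 9.72%) and 5 lower (9.57%) in mutant melanoma against WT melanophores, 3 higher (19.9%) and 2 lower (12.1%) in control melanoma against WT melanophores, and 0 higher (5.86%) and 2 lower (6.68%) in mutant against control melanoma. Their median log2 fold change was -0.33 in mutant melanoma against WT melanophores, -0.54 in control melanoma against WT melanophores and -0.04 in mutant against control melanoma. The 5 lower in mutant melanoma were PPL (log2 fold change -1.53) and evpla (-1.79), genes of plakins that in mammals belong to the cornified envelope, and the plakophilins pkp3a (-1.08), pkp2 (-1.22) and PKP1 (-1.75), which are desmosomal plaque proteins. The same 5 were also lower in control melanoma against WT melanophores. There PPL (-1.15) and PKP1 (-1.07) were the 2 called, beside evpla (-0.90), pkp2 (-0.70) and pkp3a (-0.62). None of the 5 was called between mutant and control melanoma, where the 2 lower were PKP3 (-1.15) and JUP (ENSDARG00000059067, -2.12).

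As a group the linker genes summed to 6134 and 6033 CPM in mutant melanoma, 5935 and 6034 CPM in control melanoma, and 9039 and 9019 CPM in WT melanophores, so that both melanoma groups stood at nearly the same level. There were thus 2.17 and 2.07 keratin counts for each linker count in mutant melanoma, 1.66 and 1.64 in control melanoma, and 1.87 and 1.92 in WT melanophores. Intermediate filament genes other than keratins were scarce, with 347 and 356 CPM for 24 genes in mutant melanoma, 330 and 335 CPM in control melanoma, and 443 and 434 CPM in WT melanophores. The lamin LMNA led these in every group.

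Set against the 23 keratinocyte markers other than keratins, the keratin pool was smaller in both melanoma groups than in WT melanophores. There were 1.3 and 1.28 keratin counts for each marker count in mutant melanoma, 1.3 and 1.33 in control melanoma, and 1.77 and 1.75 in WT melanophores. The mutant and control melanoma values overlapped, but this depended on icn and icn2, calcium-binding protein genes of fish epidermis, which were both called higher in mutant than in control melanoma, icn with a log2 fold change of 1.34 (edgeR adjusted p = 4.5e-05) and icn2 with 1.18 (edgeR adjusted p = 1.9e-04). Without these genes the ratio was 2.16 and 1.95 in mutant melanoma, 1.63 and 1.67 in control melanoma, and 2.39 and 2.35 in WT melanophores, and the 3 groups did not overlap. They were left out after their rise was seen, which by itself lifts the mutant ratio over that of control melanoma. This gap between mutant and control melanoma is therefore no independent result. Of the 23 markers, 1 was called higher (background 9.72%) and 2 lower (9.57%) in mutant melanoma against WT melanophores, 2 higher (19.9%) and 1 lower (12.1%) in control melanoma against WT melanophores, and 3 higher (5.86%) and 1 lower (6.68%) in mutant against control melanoma. TP63, the master regulator of basal keratinocytes, averaged 71.2 CPM in mutant melanoma, 46.4 CPM in control melanoma and 54.3 CPM in WT melanophores. It was 0.66 higher on the log2 scale in mutant than in control melanoma (edgeR adjusted p = 0.0138), under the minimum fold change. Other markers went the other way in this comparison, such as cldne at -1.76 (called lower) and GRHL1 at -0.63 (not called). The median log2 fold change of the 23 markers there was 0.06.

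Marker sums of most other cell types also differed between the groups. The 6 leukocyte markers found summed to 565 and 552 CPM in mutant melanoma, 798 and 837 CPM in control melanoma, and 2629 and 2637 CPM in WT melanophores. Of the WT sum cd74a and cd74b gave the most, with means of 1300 and 661 CPM. lyz went the other way, with means of 12.1 CPM in mutant melanoma, 11.4 CPM in control melanoma and 3.28 CPM in WT melanophores. The 7 skeletal muscle markers summed to 714 and 599 CPM in mutant melanoma, 1151 and 1139 CPM in control melanoma, and 52.6 and 51.0 CPM in WT melanophores. The 9 fibroblast and scale markers summed to 280 and 279 CPM in mutant melanoma, 966 and 922 CPM in control melanoma, and 232 and 233 CPM in WT melanophores. The 5 mucous cell markers summed to 558 and 537 CPM in mutant melanoma, 360 and 376 CPM in control melanoma, and 642 and 654 CPM in WT melanophores. This order is that of the keratin sum, but single markers differed in it. muc5.2 averaged 195 CPM in mutant melanoma, 135 CPM in control melanoma and 490 CPM in WT melanophores. For muc5.1 these means were 208, 178 and 74.0 CPM, and for AGR2 141, 53.2 and 79.9 CPM. The 7 ionocyte markers summed to 19.6 and 34.7 CPM in mutant melanoma, 26.3 and 31.0 CPM in control melanoma, and 51.9 and 52.2 CPM in WT melanophores. The 7 endothelium markers summed to 22.6 and 19.1 CPM in mutant melanoma, 84.6 and 73.8 CPM in control melanoma, and 31.4 and 25.7 CPM in WT melanophores. The 10 iridophore and xanthophore markers differed little in sum, with 248 and 291 CPM, 264 and 281 CPM, and 250 and 249 CPM in the same order. Within that sum csf1ra was highest in WT melanophores, while genes such as aox5 were lowest there. Of these 10 genes, 7 were called higher (background 19.9%) and 0 lower (12.1%) in control melanoma against WT melanophores. In mutant melanoma against WT melanophores 6 were called higher (background 9.72%) and 1 lower (9.57%). Every gene of these lists had a count in at least 1 library. The part of these cell types in the keratin differences was not tested.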

How the data were processed

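Per the study's methods, the authors used Trimmomatic for trimming, STAR for alignment to GRCz11 and featureCounts for counting; total RNA was depleted of ribosomal RNA, so noncoding RNA is counted. They deposited raw, whole-number counts for each gene, 1 file per library, with coordinates and gene lengths. Annotation release, strand setting and treatment of multi-mapping reads are not given in the sources used here.

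Symbols came from a name table that covered 29201 of 32520 genes. Software was edgeR 4.0.16 and DESeq2 1.42.0 in R 4.3.3. Each pair of groups (4 libraries) was fitted with edgeR's quasi-likelihood test on all genes past filterByExpr (minimum count 10, minimum total 15) with TMM scaling and Benjamini-Hochberg adjustment over all genes tested. SE is the absolute log2 fold change over the square root of F. Replicate numbers come from the labels and did not pair the samples (correlations of same-numbered libraries -0.0108, 0.00348 and 0.00892).

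On simulated counts with 200 genes changed, edgeR called 88% of the changed genes that passed the filter in mutant melanoma against WT melanophores (17585 genes), 88% in mutant against control melanoma (17287 genes) and 91.9% in control melanoma against WT melanophores (18684 genes). In the same order, edgeR also called 6, 9 and 5 unchanged genes. The simulated replicate spread (biological coefficient of variation) was 0.25, against fitted values of 0.211, 0.231 and 0.079 in that order. Recovery was not split by size of change or by count. These percentages therefore cannot be read as the power for keratins with small changes or few counts. Depth was 3538922 to 8446997 counts per library.

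The members, gene lists and tests were chosen with earlier results of these data known. Values are given per library for the 12 most abundant keratins, the 3 largest called rises and falls per comparison and a list of well-known keratins. Other keratins are given by counts, chosen after their values were seen. Type I and type II were to be assigned by protein identity; no protein table was used, so only krt4, krt5 and krt8 were grouped as type II, a choice made afterwards. Alternatives were DESeq2, its size factors in edgeR, library sizes without abundant genes, other filters, all 6 libraries in 1 fit, the replicate number as a block, other thresholds, and leaving out each library.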

Additional observations from a re-analysis of the deposited data

How the results depend on the processing

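Of 356 single-keratin fold changes under alternatives other than leaving out a library, 342 kept their direction and their side of the threshold, 6 lost a call, 4 gained one and 4 changed sign. The sign changes were small values: krt5 in mutant melanoma against WT melanophores was -0.061 without a filter, -0.034 with at least 10 counts in every library and -0.006 with all 6 libraries in 1 fit, and krt4 between mutant and control melanoma was -0.016 with at least 10 counts. Leaving out a library gave krt5 -0.058 to 0.058 in mutant melanoma against WT melanophores, and KRT222 -0.856 to 1.248 and krt99 -0.856 to 1.292 between mutant and control melanoma.

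In control melanoma against WT melanophores the number of keratins called was 3 with all 6 libraries in 1 fit, where krt1-c5, KRT222 and krt93 lost their calls, and 15 with no minimum fold change. In mutant melanoma against WT melanophores it was 3 with a minimum of 2 on the log2 scale. Between mutant and control melanoma it was 2 with DESeq2, with at least 10 counts in every library and with all 6 libraries in 1 fit, 0 with library sizes without abundant genes or a minimum of 2, and 9 with no minimum. Leaving out a library gave 5 to 6 calls in control melanoma against WT melanophores, 7 to 12 in mutant melanoma against WT melanophores and 0 to 4 in mutant against control melanoma, where a lone library is assumed to vary like the others. Beyond the thresholds themselves the cause was not tested. With the replicate number as a block the calls in these comparisons were 6, 9 and 1, as without it.

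The mean keratin share of mutant melanoma was 2.27% without abundant genes in the denominator, 0.831% without krt91 and 1.21% to 1.22% with a library left out. In control melanoma these were 1.73%, 0.513% and 0.776% to 0.78%, and in WT melanophores 2.88%, 1.5% and 2.29% to 2.33%. Keratin counts per marker count averaged 1.29 in mutant melanoma, 1.32 in control melanoma and 1.76 in WT melanophores. Without icn and icn2 they averaged 2.05 in mutant melanoma, 1.65 in control melanoma and 2.37 in WT melanophores, and with linkers in place of markers 2.12 in mutant melanoma, 1.65 in control melanoma and 1.89 in WT melanophores; both choices were made after seeing the data. The scaling alternatives moved the median of all genes by at most 0.057 on the log2 scale. Depth limits the keratins under about 10 counts a library.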
